A study of Mus musculus with 6 samples.

Results

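The 9 genes Myo10, Myo6, Myo5a, Myo1c, Myo1e, Myo9a, Myo18a, Myh9 and Myh10 encode myosin heavy chains that are not built into the sarcomere. They are a part of the non-sarcomeric myosins, chosen by name with earlier results of these data known. They were followed through RISC-IP peak lists by taking every peak that overlapped an annotated exon by at least 1 bp. Peaks over their exons were listed for all 9 genes, among 13241 genes with an exonic peak, which given that choice is no finding. They amounted to 150 peaks in the 5 libraries with narrow peaks. Overlapping or touching peaks of these libraries were merged, which left 76 intervals over the 9 genes, of 38946 exonic intervals in all.

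The study asked which RNAs entered the RNA-induced silencing complex (RISC) when miR-222 was raised in differentiating muscle cells. Primary mouse satellite cells (MSC), the stem cells of adult skeletal muscle, had been kept in differentiation medium for 30 h. They were then transfected with miR-222 duplex (miR-222-IP, n = 2) or with a duplex against GFP as control (control-IP, n = 4), and RNA bound to Ago2, the core protein of RISC, was recovered 16 h later. The labels give 10 nM duplex, and the study's methods name another concentration for the pulldown. The libraries are called control-IP 1 to 4 and miR-222-IP 1 and 2 here. Experiment 1 held control-IPs 1 and 2 with miR-222-IP 1, and experiment 2 held control-IPs 3 and 4 with miR-222-IP 2. All cells were transfected and all libraries were pulldowns, so the groups shared Lipofectamine, the antibody and the cDNA amplification. No strain, animal number or age is given in the labels, the sample title of miR-222-IP 2 reads miR22 where its condition label reads miR222, and the sources used here do not say whether replicates came from separate animals.

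Myosins are motors that bind actin and spend ATP to pull on it. The non-muscle myosin II heavy chains encoded by Myh9 (IIA) and Myh10 (IIB) assemble into short bipolar filaments that contract the cell cortex and stress fibres. The unconventional myosins mostly act on membranes and cargo: class I motors tie membrane to actin, Myo5a and Myo6 carry cargo in opposite directions along the filament, and Myo10 travels to the tips of filopodia, which myoblasts use when they meet and fuse. Myo9a is a motor with a signalling domain in its tail, and Myo18a joins non-muscle myosin II filaments with little motor activity of its own. A microRNA guides Ago2 to an mRNA chiefly through its seed, bases 2 to 8 from the 5′ end.

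The seed is shown first because each site below was found by its complement. The mature sequences are those of RefSeq on GRCm38.p6, with the seed in capitals. Both come from the minus strand of chromosome X, miR-222-3p from chrX:19146901-19146923 and miR-221-3p from chrX:19146307-19146329, and they share the seed.
mmu-miR-222-3p: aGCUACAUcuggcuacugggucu
mmu-miR-221-3p: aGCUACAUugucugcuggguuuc

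The complementary 7-mer ATGTAGC was searched on the strand of each gene, on GRCm38 (mm10), and the matches under merged intervals are described. These sites are printed 5′ to 3′ in windows of 30 nt with the 7-mer in capitals. The Myo10 match lay at chr15:25813075-25813081 in the 3′UTR. The Myo9a matches lay at chr9:59780066-59780072 and chr9:59780272-59780278 in the coding sequence of exon 2. The Myo5a match lay at chr9:75221039-75221045, in a 3′UTR used by transcripts other than the principal one. The Myo6 match lay at chr9:80300719-80300725, in the intron 53 bp past the nearest exon but inside a peak.
Myo10 3′UTR: tcggtttcgttttacATGTAGCtagggcgg
Myo9a coding, first: agactttgatgatttATGTAGCttgcctga
Myo9a coding, second: tatatgctgtggcagATGTAGCttatcatg
Myo5a alternative 3′UTR: gccaagggacaggggATGTAGCtctgggcc
Myo6 intron: agtacgtatgaatgcATGTAGCtatacatc

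The values are −log10 p of macs2, the peak caller that the authors ran on each library alone, and they listed peaks above 20. A score therefore rises with enrichment and with sequencing depth, and a missing peak is not missing RNA. The narrow lists held 10579 to 37762 peaks, with the fewest in control-IP 1 and the most in miR-222-IP 2. The list of control-IP 3 stood apart, with a median peak width of 32103 bp against 362 to 411 bp in the others. It also ended on chromosome 18, covering 10 chromosomes, so its peaks are given apart. Read totals of the libraries were not used here.

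The cells were checked by marker genes under the same peaks. Of 10 skeletal myocyte markers, 7 to 10 had an exonic peak in each narrow library, and the sum of their highest scores was 270 to 443 in 4 libraries and 1408 in miR-222-IP 2. Myog, a master regulator of terminal differentiation, had a peak in miR-222-IP 2 alone (75.7). Immune markers were also under peaks in every library, 3 or 4 of 4, with summed scores of 515 to 692. Adgre1, the macrophage antigen F4/80, scored 196 to 236, and Lyz2, the lysozyme of myeloid cells, 157 to 185. Of 5 fibroblast markers, Pdgfra alone had a peak (20.1, control-IP 4), whereas Col1a1, Dcn, Lum and Tcf21 had none. Endothelial markers were under peaks for 1 or 2 of 4, with Pecam1 at 26.1 to 81.2 and no peak over Kdr or Tie1. Of 4 cycling markers 2 had peaks in control-IP 1 and 4 in the other narrow libraries. The lists hold no cell labels, so fewer cells of a type and less RNA per cell cannot be told apart, and the part of immune cells or of the higher myocyte marker scores in the myosin values was not tested.

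Peaks over the 9 genes numbered 5 and 24 in control-IPs 1 and 2, 30 in miR-222-IP 1, 21 in control-IP 4 and 70 in miR-222-IP 2. They made up 0.0473%, 0.120%, 0.142%, 0.117% and 0.185% of those libraries' peaks, so the number and the share were both lowest in control-IP 1 and highest in miR-222-IP 2. When each list was shortened to its 10579 highest peaks, the numbers were 5, 12, 3, 10 and 10. The higher number in the miR-222-IPs was then gone, miR-222-IP 1 having the fewest. The median score of the myosin peaks was 26.5 to 35.3 by library, below the median of 34.3 to 40.4 over all peaks in each of the 5 libraries.

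**Figure D1:**
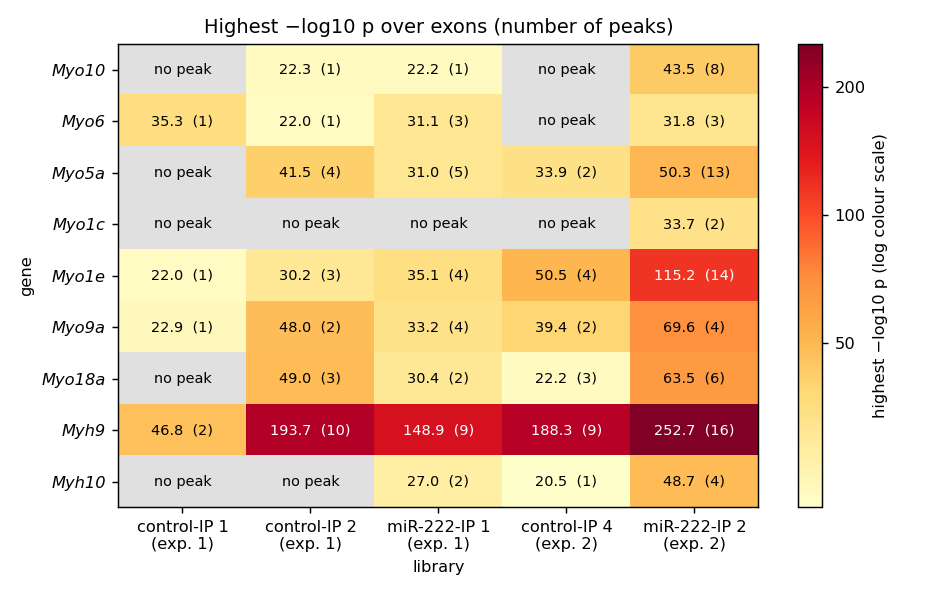
Highest −log10 p of any peak over the exons of each gene (rows) in each narrow library (columns), on a logarithmic colour scale, with the number of peaks in brackets and grey for no peak. Myh9 has the highest score in each of these libraries, and Myo10 has peaks in 3 of the 5.

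Myh9, the heavy chain of non-muscle myosin IIA (ENSMUSG00000022443, chr15:77760587-77842175, minus strand), had the highest score of the chosen genes in all 5 narrow libraries. Its highest score was 46.8 in control-IP 1, 193.7 in control-IP 2, 148.9 in miR-222-IP 1, 188.3 in control-IP 4 and 252.7 in miR-222-IP 2. Control-IP 1 was the low library and the other narrow controls lay between miR-222-IP 1 and miR-222-IP 2, so the groups overlapped. Among genes with an exonic peak it stood at percentile 56.7 in control-IP 1 and at 93.7 to 99.3 in the rest. Peaks covered 15.1% of its mRNA in control-IP 1, 31.6% to 38.8% in the other controls and miR-222-IP 1, and 51.9% in miR-222-IP 2. In all, 21 of its 41 exons were under a peak.

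The Myh9 interval with the highest scores, chr15:77812777-77813334, spanned the last bases of the 5′UTR and the start of the coding sequence in exon 2, and held the gene's highest score in each narrow library. The log2 difference of miR-222-IP to control-IP, after scaling and with experiment as a term, was 0.09 ± 0.40 (SE, n = 2 and 3, limma adjusted p = 0.993). Its 3′UTR interval, chr15:77760569-77761506, scored 28.4, 68.2, 70.9, 84.4 and 114.6 in control-IPs 1 and 2, miR-222-IP 1, control-IP 4 and miR-222-IP 2. The difference there was 0.12 ± 0.40 (limma adjusted p = 0.993). Both differences were smaller than their errors, and both turned negative without control-IP 1, at −0.35 and −0.12, and without miR-222-IP 1, at −0.18 and −0.16. Apart from 1 in the 5′UTR, the remaining Myh9 intervals ran along the coding sequence, and 2 of them, in exons 19 and 22, had a peak in control-IP 2 alone (21.4 and 43.7).

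Myh10, the IIB heavy chain (ENSMUSG00000020900, chr11:68691559-68816632), was weaker, with 4 intervals. Its highest score was 27.0 in miR-222-IP 1, 20.5 in control-IP 4 and 48.7 in miR-222-IP 2, and control-IPs 1 and 2 listed no peak. The highest score of control-IP 4 was near the listing threshold. The 3′UTR interval chr11:68815671-68816449 held the peaks of 3 libraries (27.0, 20.5 and 42.7). The interval at the start of the coding sequence, chr11:68699215-68699488, held the highest score and was listed in miR-222-IP 2 alone. Myo18a (ENSMUSG00000000631, chr11:77763246-77865980), the partner of these filaments, had no peak in control-IP 1 and highest scores of 49.0, 30.4, 22.2 and 63.5 in control-IP 2, miR-222-IP 1, control-IP 4 and miR-222-IP 2. The control-IPs with a peak thus differed from each other by more than miR-222-IP 1 differed from either. These scores came from the last exon, chr11:77864741-77866015, which joins coding sequence and 3′UTR.

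Myo1e, a long-tailed class I motor of membrane and endocytic actin (ENSMUSG00000032220, chr9:70207350-70399766), had 14 intervals over 14 of its 28 exons. Its highest score was 22.0 and 30.2 in control-IPs 1 and 2, 35.1 in miR-222-IP 1, 50.5 in control-IP 4 and 115 in miR-222-IP 2. Each miR-222-IP was above the narrow control-IPs of its own experiment, but miR-222-IP 1 was below control-IP 4. By gene, the scaled log2 difference was 0.29 ± 0.38 (SE, limma adjusted p = 0.999). The mRNA was the most widely covered of the 9 in miR-222-IP 2, at 65.0%, against 20.1% to 35.8% in the other libraries. Of its 14 intervals, 9 were listed in miR-222-IP 2 alone, all within the coding sequence.

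The Myo1e interval chr9:70398664-70399820, over the end of the coding sequence and the 3′UTR, was called in all 5 libraries. It scored 22.0, 22.5, 33.2, 46.3 and 79.7, in the same order of libraries. The log2 difference was 0.21 ± 0.33 (SE, limma adjusted p = 0.992), within its error. Myo1c, the short-tailed class I motor that serves exocytosis of glucose transporters (ENSMUSG00000017774, chr11:75650504-75673910), was at the other end of the chosen genes. It had 2 intervals, scored 33.7 and 28.8, and both were listed in miR-222-IP 2 alone.

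Myo10, the filopodial motor (ENSMUSG00000022272, chr15:25622525-25813673), had no peak in control-IPs 1 and 4. Control-IP 2 listed 1 peak of 22.3, miR-222-IP 1 listed 1 of 22.2, and miR-222-IP 2 listed 8, the highest at 43.5. The first 2 were close to the threshold of 20, at percentiles 6.01 and 5.68 of genes with an exonic peak, and the last stood at percentile 30.2. Of its 8 intervals, 7 lay in coding sequence, in exons 6, 10 to 12, 27, 32 and 33, and were listed in miR-222-IP 2 alone at 24.3 to 43.5. The last interval, chr15:25812102-25813666 in the last exon, ran from the end of the coding sequence through most of the 3′UTR. Of its peaks, that of control-IP 2 (22.3, chr15:25812150-25812432) ended before the seed match, whereas those of miR-222-IP 1 (22.2, chr15:25812682-25813610) and miR-222-IP 2 (34.5, chr15:25812102-25813666) covered it. The study had selected Myo10 from these same libraries, among RNAs with a predicted miR-222 site under a peak overrepresented in the miR-222-IPs. It then found Myo10 raised by qPCR in new pulldowns. The pattern of peaks over the match is therefore no independent support, and its share among all intervals with a match was not counted. With 10579 peaks per library no Myo10 peak was left in any of the 5 lists.

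**Figure D2:**
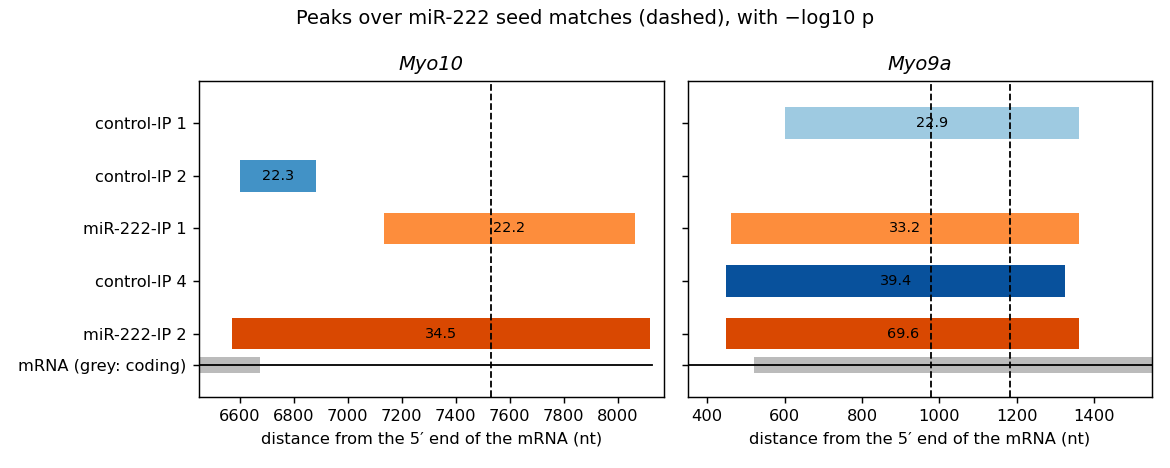
Peaks of each narrow library (rows) along the end of the Myo10 mRNA and the start of the Myo9a mRNA (distance from the 5′ end, nt), with the −log10 p printed on each peak, the coding sequence in grey and miR-222 seed matches as dashed lines. The Myo10 match is under peaks of both miR-222-IPs and no narrow control-IP, whereas the Myo9a matches are also under peaks of control-IPs 1 and 4. The study selected Myo10 from these libraries, so its pattern is no independent support.

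Myo9a, a class IX motor (ENSMUSG00000039585, chr9:59750896-59928866), had 4 intervals and the coding seed matches. The interval over them, chr9:59779523-59780522, joined 5′UTR and coding sequence and scored 22.9 in control-IP 1, 33.2 in miR-222-IP 1, 39.4 in control-IP 4 and 69.6 in miR-222-IP 2, with no peak in control-IP 2. Both matches were thus under peaks of both conditions. The gene's highest score in control-IP 2, 48.0, lay elsewhere, in chr9:59870414-59871959 of exon 25. By gene, the scaled log2 difference was −0.13 ± 0.38 (SE, limma adjusted p = 0.999). Its interval chr9:59827056-59827397 overlapped an exon of Gm20275 too, and since the peaks carry no strand the source of that signal cannot be assigned to either gene.

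Myo5a, the carrier of vesicles along cortical actin (ENSMUSG00000034593, chr9:75071015-75223688), had 15 intervals. Its highest scores were 41.5, 31.0, 33.9 and 50.3 in control-IP 2, miR-222-IP 1, control-IP 4 and miR-222-IP 2, with no peak in control-IP 1. Again the control-IPs lay above miR-222-IP 1 and below miR-222-IP 2. The interval with its seed match, chr9:75220536-75221232, had peaks over the match in miR-222-IP 1 (31.0), control-IP 4 (33.9) and miR-222-IP 2 (50.3).

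Myo6, the motor that walks towards the minus end of actin (ENSMUSG00000033577, chr9:80165031-80311729), had 5 intervals, and its highest score lay between 22.0 and 35.3 in the libraries that listed it. The highest was 35.3 in control-IP 1, 22.0 in control-IP 2, 31.1 in miR-222-IP 1 and 31.8 in miR-222-IP 2, with no peak in control-IP 4. It was the only gene of the 9 whose highest score over the narrow libraries came from a control-IP. Exon 30 with the intronic match was listed in the miR-222-IPs alone (31.1 and 26.2).

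**Figure D3:**
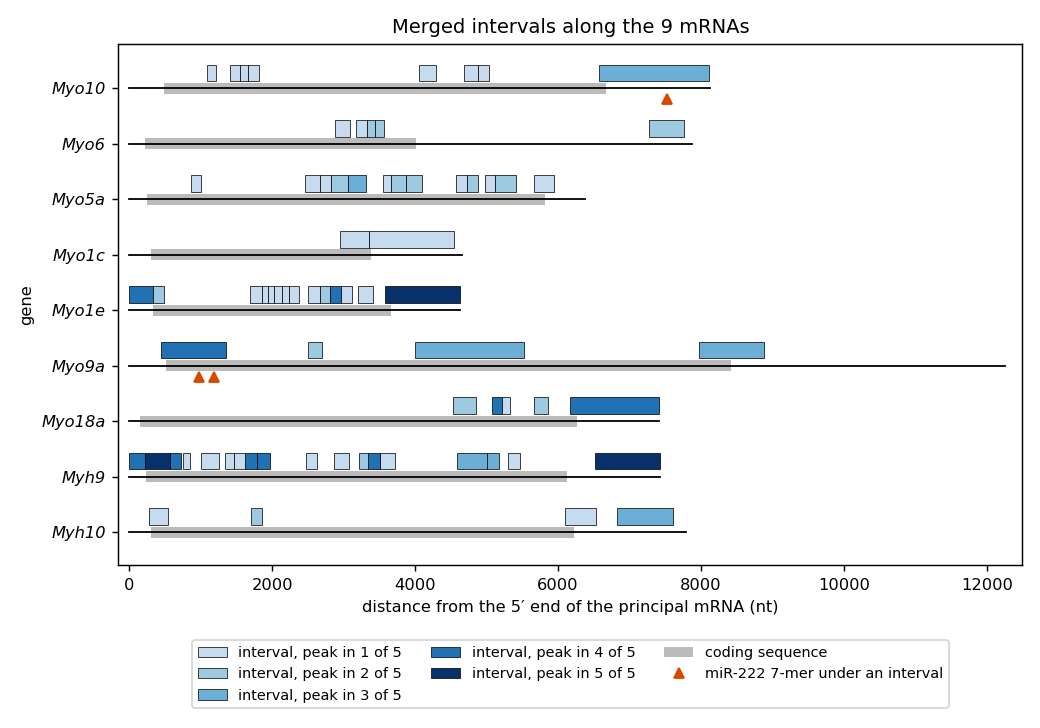
Merged intervals along the principal mRNA of each gene (distance from the 5′ end, nt), shaded by the number of narrow libraries with a peak, with the coding sequence in grey and miR-222 7-mers under the drawn intervals as triangles. Intervals with peaks in 4 or 5 libraries occur in Myh9, Myo1e, Myo9a and Myo18a, and the Myo10 match lies in the 3′UTR. Intervals in exons outside the principal mRNA are not drawn.

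By position in the principal mRNA, 58 of the 76 intervals lay in coding sequence alone, 7 joined coding sequence and 3′UTR, and 3 lay in the 3′UTR alone. Another 4 joined 5′UTR and coding sequence, 1 lay in the 5′UTR, and 3 were over exons of other transcripts. Taking every annotated transcript, coding sequence alone held 52.6% of the myosin intervals and 47.2% of all exonic intervals, and the 3′UTR alone 6.58% and 9.93%. The median width of the myosin intervals was 327.5 bp, against 376 bp for all exonic intervals. It was 319.5 bp in coding sequence (n = 58) and 927.5 bp where the 3′UTR was included (n = 10). Of the 76, 48 reached past both ends of 1 exon, by a median of 82.5 bp on each side (20 to 191 bp). This was not counted over all exonic intervals, so it is no trait particular to the myosins.

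An exact 7-mer lay in 4 myosin intervals, 5.33% of the 75 whose gene strand is unambiguous, against 2.51% of 37545 exonic intervals of known strand. These were the intervals of Myo10, Myo9a, Myo5a and Myo6 described above. The share thus rests on 4 intervals, with the Myo6 match in an intron. The Myo10 match was no independent observation, given the study's selection of that gene. Widths were not matched to the background, and these intervals spanned 1565, 1000, 697 and 331 bp in that order. The difference from the background share was not tested. The 7-mers of muscle and ubiquitous microRNAs served for comparison. ACATTCC of miR-1 and miR-206 lay in 3 myosin intervals against a background of 3.44%, GGACCAA of miR-133 in 1 against 3.25%, and CTACCTC of let-7 in 1 against 3.62%. No interval of Myo1c, Myo1e, Myo18a, Myh9 or Myh10 held the miR-222 7-mer. A match describes letters in the interval and not a bound site.

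Setting missing scores to the threshold of 20 allowed the intervals with a match to be compared. The filled scores were scaled with the rest, by size factors from 0.703 in control-IP 1 to 1.49 in miR-222-IP 2. A missing peak thus ended above 20 in control-IP 1 and below it in miR-222-IP 2. The log2 difference of miR-222-IP to control-IP was then −0.08 ± 0.32 for Myo10, 0.25 ± 0.47 for Myo9a, 0.15 ± 0.45 for Myo5a and 0.07 ± 0.32 for Myo6 (SE, limma adjusted p = 0.9998 for each). Each was smaller than its error, and each rests in part on filled scores. For Myo6 every narrow control-IP was filled, for Myo5a control-IPs 1 and 2, and for Myo9a control-IP 2. The Myo10 value rests on filled scores in control-IPs 1 and 4, and on a peak of control-IP 2 that did not reach the match. After scaling, the filled score of control-IP 1 stood above the listed peaks of both miR-222-IPs in this interval. The negative sign for Myo10 therefore gives no direction. Of 36 myosin intervals that could be compared in this way, none had an unadjusted p under 0.05 in limma, the smallest being 0.187.

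Of the 76 intervals, 40 had a peak in 1 library, 15 in 2, 8 in 3, 10 in 4 and 3 in all 5. The share in all 5 was 3.95%, a smaller share than the 19.8% of all exonic intervals. Both miR-222-IPs and no narrow control-IP listed 9 intervals (11.8%, against 6.53%). They comprised 4 of Myo5a, 2 of Myo6 and 1 each of Myo1e, Myo9a and Myh10. MiR-222-IP 2 alone listed 35 intervals (46.1%, against 30.9%), and control-IP 2 alone listed 5. With 10579 peaks per library these counts fell to 0 and 2 of 20 intervals, with backgrounds of 1.35% and 5.78%. Both counts thus fell when the lists were cut to the same length. That cut also raised the lowest score kept in the longer lists, and the parts of length and score were not tested apart. Without control-IP 1 the count in every library was 12.

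**Figure D4:**
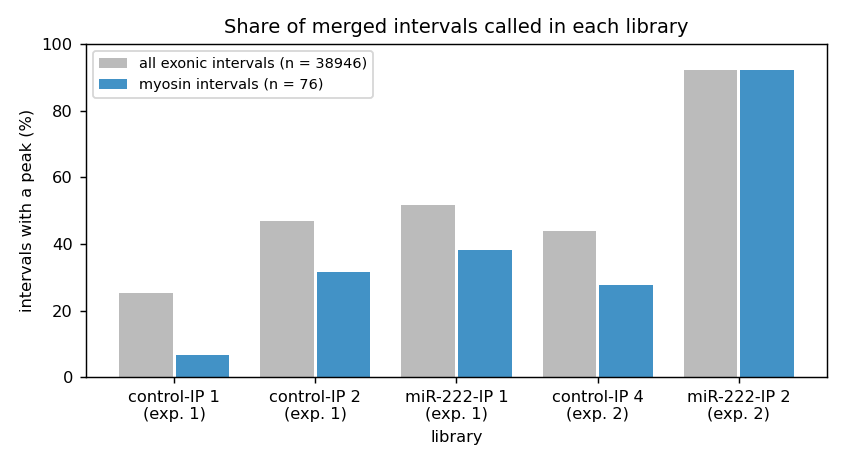
Share of merged intervals with a peak in each narrow library, for all 38946 exonic intervals (grey) and the 76 myosin intervals (blue). The myosin share is lower in 4 libraries (6.58% against 25.4% in control-IP 1), and nearly equal in miR-222-IP 2 (92.1% against 92.3%).

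The test of miR-222-IP against control-IP across all features found no call in either direction. By interval, 0 of 7698 with a peak in all 5 libraries passed an adjusted p of 0.05 (0.00%), with 222 at an unadjusted p under 0.05 in limma and a smallest adjusted p of 0.992. By gene, 0 of 5283 passed (0.00%), with 105 at an unadjusted p under 0.05. Without control-IP 2, 435 of 8979 intervals and 331 of 5621 genes passed, and no myosin was among them. No count test could be used, since the scores are not counts. The 3 myosin intervals and the 3 genes Myh9, Myo1e and Myo9a that could be tested were not among those at an unadjusted p under 0.05.

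Against the narrow control-IPs of their own experiment, Myo1e was the only gene of those 3 that was higher in both miR-222-IPs, and none was lower in both. Over all genes tested 16.6% were higher in both and 16.8% lower in both, and over all intervals 17.3% and 18.3%. For Myo1e the scaled scores were 31.8, 30.1 and 34.0 in experiment 1 and 53.1 and 74.4 in experiment 2, the last in each being the miR-222-IP. The exact permutation test within experiments has 6 arrangements, and Myo1e took the smallest two-sided p they allow, 0.167, so the design cannot reach 0.05. Exact p was 0.833 for Myo9a and 1 for Myh9.

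Without control-IP 1, the shortest narrow list, 12 myosin intervals had a peak in all libraries, 7 of Myh9, 3 of Myo1e and 2 of Myo18a. Only 2 of them, both of Myo1e, were higher in the miR-222-IP of both experiments (16.7%, against 24.8% of 11061 intervals), and 4, all of Myh9, were lower in both (33.3%, against 24.7%). The largest difference was in exon 23 of Myo1e, chr9:70376405-70376762, where the log2 ratio was 1.55 in experiment 2 and −0.45 in experiment 1. Its scores were 30.2 and 23.0 in experiment 1 and 20.5 and 95.9 in experiment 2, control first, so the direction did not carry from 1 experiment to the other. Over the 12 intervals the ratios ran from −1.06 to 0.50 in experiment 1 and from −0.26 to 1.55 in experiment 2. The SD of the log2 ratio over 7698 intervals was 0.75 for control-IP 1 to control-IP 2, 0.74 for control-IP 2 to 4 and 0.51 for control-IP 1 to 4, against 0.48 between the miR-222-IPs. Control libraries thus differed from each other by about as much as most of these ratios. Across conditions the SD ran from 0.38 for miR-222-IP 1 to control-IP 4 up to 0.80 for control-IP 2 to miR-222-IP 2. Every pair with control-IP 2 lay between 0.73 and 0.80, so the widest spreads involved that library.

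**Figure D5:**
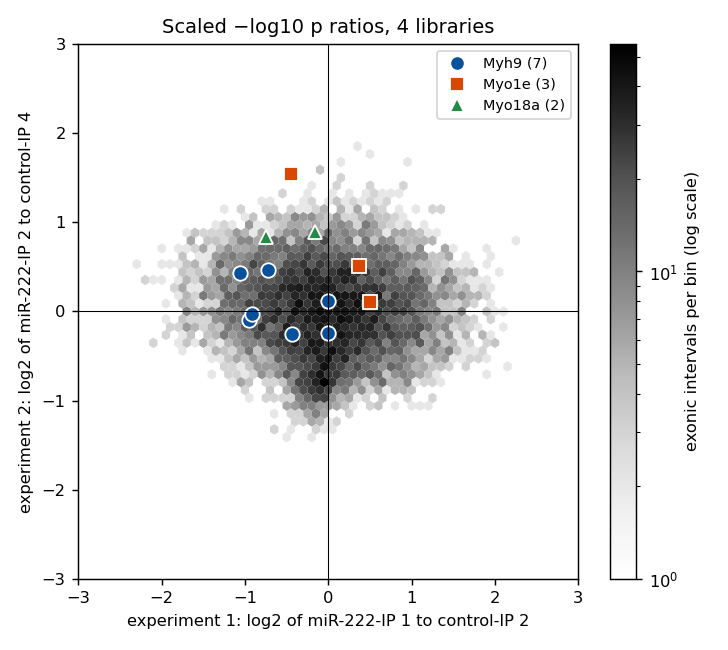
Scaled log2 ratio of −log10 p of miR-222-IP to control-IP in experiment 1 (x axis) and experiment 2 (y axis), for 11061 exonic intervals (grey, number per bin on a log scale) and the 12 myosin intervals with peaks in control-IPs 2 and 4 and both miR-222-IPs. Most myosin points lie within the grey cloud, and the Myo1e interval at −0.45 and 1.55 lies above nearly all of it.

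The wide peaks of control-IP 3 ran over introns and exons alike. On the chromosomes that its list reached, single peaks of 175328, 95478, 107633 and 88531 bp lay over Myo1c (score 189), Myh9 (187), Myh10 (102) and Myo18a (57.0), with 100%, 100%, 85.9% and 95.7% of their exonic bases, and 4 peaks of 428 to 221508 bp lay over Myo10 (53.2 to 134). Such a peak covered the Myo10 match as it did 4 of the 8 Myo10 intervals, so it gives no position within the gene. The 4 members on chromosome 9 were not covered by that list.

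Other myosins and their partners were read from lists of genes set beside the chosen genes. Of 19 further non-sarcomeric myosins, 11 had no exonic peak and 8 had one in miR-222-IP 2. Led by Myo9b, Myo1h and Myo1f, they gave 3 genes to the test. Myo9b, the other class IX motor, scored 34.0, 78.3 and 126 in control-IPs 1, 2 and 4 and 58.0 and 151 in miR-222-IPs 1 and 2. Myo1f, a class I motor found mainly in leukocytes, scored 27.5, 76.6 and 68.6 in the same controls and 59.9 and 127 in the miR-222-IPs. Both ranges overlapped between conditions. Myo1h, another class I motor, scored 85.1, 50.1 and 84.8 in these controls and 108.4 and 133 in the miR-222-IPs as listed. Without scaling, the log2 difference of miR-222-IP to control-IP was positive for 92.5% of the 5283 genes tested. After scaling, that of Myo1h was 0.22 (limma adjusted p = 0.999).

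Of 10 sarcomeric myosins, 1, 2 and 2 had peaks in control-IPs 1, 2 and 4, and 4 and 7 in miR-222-IPs 1 and 2. Over all genes, 6046, 9487 and 8256 had an exonic peak in these controls and 9196 and 12519 in the miR-222-IPs. The highest in miR-222-IP 2 were Myh13 (176), Myh8 (149.7) and Myh3 (102), of which Myh3, the embryonic heavy chain, was listed in all 5 libraries (51.6 to 75.4 in the others). Myh7b, named after its values were seen, scored 115.4 in control-IP 2, 37.7 in miR-222-IP 1 and 75.1 in miR-222-IP 2. Of 4 non-muscle light chain genes that were matched, of 5 sought, Myl12a, a regulatory light chain of myosin II, scored 68.4, 55.9 and 111 in control-IPs 1, 2 and 4 and 96.1 and 193 in the miR-222-IPs, followed in miR-222-IP 2 by Myl6b (97.1) and Myl6 (48.5). Of 20 regulators and partners, 18 had a peak in miR-222-IP 2 and 11 to 13 in the others, and in miR-222-IP 2 the actin elongation factor Vasp, the calmodulin gene Calm2 and the small GTPase Cdc42 scored highest. Vasp scored 93.5, 120.4 and 126.5 in control-IPs 1, 2 and 4 and 157 and 226 in miR-222-IPs 1 and 2. Calm2 was lower in the miR-222-IPs as listed, at 216, 239 and 213 in the controls and 201 and 179 in the miR-222-IPs. After scaling, the log2 difference was 0.20 for Vasp and −0.68 for Calm2 (limma adjusted p = 0.999 for each). Cdc42 overlapped between conditions, at 129, 173 and 156 against 142 and 154. The test reached 3 further myosins, 1 sarcomeric heavy chain, 2 light chains and 10 regulators, and called 0 of them higher and 0 lower.

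The genes most like Myo10 were sought among 527 with an exonic peak in the same 3 libraries. By Euclidean distance of the scaled log2 scores over those libraries, the nearest were Xpo4 (0.10), Rnf122 (0.14) and E130311K13Rik (0.14). Xpo4, for example, scored 20.9 in control-IP 2, 22.9 in miR-222-IP 1 and 43.5 in miR-222-IP 2, again close to the threshold in the first 2 of these.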

How the data were processed

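RISC-IP RNA of 6 libraries was sequenced. Per the study's methods, reads were aligned to mm10 and macs2 called peaks in each library at default parameters. The deposited value of a peak is its −log10 p, which the authors filtered at 20. The macs2 version is not given in the sources used here, and no read counts were used. Here, peaks of 5 libraries were merged, assigned to exons of GENCODE M21 and searched for the 7-mer on GRCm38 in Python 3.11.15 (numpy 2.4.6, pysam 0.24.0). The principal mRNA of a gene was 1 coding transcript. The highest score per library was scaled by the median of ratios, log2 transformed and tested with limma 3.58.1 in R 4.3.3 (eBayes with trend, condition plus experiment, Benjamini-Hochberg over all features, threshold 0.05). P-values measure the spread between these libraries, which may be technical. Merging, limma and the exact test were tested on simulated data. All 9 members were named, with the 3 genes of each list that scored highest in miR-222-IP replicate 2 and the 3 nearest to Myo10. Matches under no interval are not reported here. Alternatives covered the threshold, overlap, annotation, list length, scaling, merging, libraries without a peak and each library left out. The members and lists were chosen with earlier results of these data known.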

Additional observations from a re-analysis of the deposited data

Results flagged for a closer look

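The highest Myh9 score among the 4 control-IPs was separated by control-IP replicate 1, at 46.8, where the others lay between 187 and 193.7. Its gap to the nearest of them was 0.957 of the whole range, above Dixon's critical value for 4 samples. Of 2 measures examined in this way, 1 passed, and chance alone passes about 1 in 20. Control-IP replicate 1 also had the shortest narrow list, with 10579 peaks, and the value of control-IP replicate 3 comes from a peak of 95478 bp. Their part in the gap was not tested.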

How the results depend on the processing

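At −log10 p above 50 the 150 myosin peaks fell to 27, intervals with a seed match from 4 to 2, those in all 5 libraries from 3 to 0, those in both miR-222-IPs and no control-IP from 9 to 0, and those in miR-222-IP replicate 2 alone from 35 to 12. With equal list lengths the peaks fell to 40, and the last 2 counts to 0 and 2. Leaving out libraries in turn gave 3 to 12 intervals in every library (12 without control-IP replicate 1) and 9 to 44 in the miR-222-IPs alone. The 44 arises without miR-222-IP replicate 1 by construction, since a peak in miR-222-IP replicate 2 is then enough. The calls over all features went from 0 to 4 by gene when missing peaks were given 20 before scaling. They ranged from 0 to 435 by interval and 0 to 331 by gene. The highest counts arose without control-IP replicate 2. None of the 4 intervals and 3 genes of the members tested there passed. Of those intervals 1 had an unadjusted p under 0.05 in limma (smallest limma adjusted p = 0.230).

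Of the differences tested for the members, none passed under any alternative, and several changed sign. No scaling moved the median log2 difference of all genes to 0.49, and scaling by the total moved it to −0.34 (intervals 0.48 and −0.35), and the signs followed. With total scaling the Myh9 3′UTR interval gave −0.24, its exon 2 interval and the gene −0.28, the Myo1e interval −0.16 and the gene −0.062. Without scaling Myo9a gave 0.35, and with control-IP replicate 3 the Myh9 3′UTR interval gave −0.0051. Leaving out libraries gave −0.16 to 0.34 for that interval, −0.35 to 0.43 for the exon 2 interval, −0.31 to 0.11 for Myo9a and −0.36 to 0.39 for Myh9. The cause was not tested. Without the experiment term (no replicate block), calls stayed at 0 by interval and by gene. Missing peaks limit all of these values, since a score can be compared only where a library listed a peak. The part of sequencing depth in them was not tested.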
